A study of Mus musculus with 8 samples.

Results

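The 30 genes described here make cholesterol from acetyl-CoA, hold the SREBP2 system that sets how much is made, or move sterol inside the cell. They were chosen by symbol as a list of the pathway, with earlier results of these data known. Their shares of called genes are therefore a description and not an independent test. All 30 were found among the 15521 genes of the deposited expression table, each in a single row. Alveolar macrophages, the resident phagocytes of the lung airspaces, had been lavaged from mouse lungs, purified by adherence for 2 h and kept in serum-containing medium with GM-CSF at 10 ng/ml, which all groups shared. Bulk RNA-seq was done on 8 libraries in 4 groups of 2. One group received MSDC at 10 µM followed by Poly(I:C) at 5 µg/mL (Poly(I:C) + MSDC), one the DMSO vehicle followed by Poly(I:C) (Poly(I:C) + vehicle), one MSDC without Poly(I:C) (MSDC) and one the vehicle without Poly(I:C) (vehicle). MSDC or vehicle was given 2 h ahead of stimulation, and stimulation lasted 24 h per the sample labels and overnight per the series description. The sample details used here give no total culture time for the groups without Poly(I:C). A difference in that time could not be told apart from Poly(I:C). MSDC names a family of code-named insulin sensitizers that target the carrier of pyruvate into mitochondria, and which member was used is not stated in the labels. Poly(I:C) is a synthetic double-stranded RNA that stands in for viral RNA. Mouse strain, age and sex, and whether cells of several mice were pooled, are not given in the sources used here.

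Cholesterol is built from acetyl-CoA through mevalonate, farnesyl diphosphate, squalene and lanosterol. The transcription factor SREBP2 (gene Srebf2) is made as a membrane protein of the endoplasmic reticulum, bound to the escort protein SCAP. When sterol is scarce, SCAP carries it to the Golgi, where the site-1 and site-2 proteases (Mbtps1 and Mbtps2) release the active part, which switches on most genes of the pathway. When sterol is plentiful, the INSIG proteins hold SCAP back. In macrophages, interferon signalling and cholesterol synthesis are known to influence each other, and alveolar macrophages also clear and break down surfactant lipid.

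Libraries held 28762425 to 29493223 counts, and 11621 genes, among them all 30 sterol genes, passed the filter on low counts. The lowest count of any of the 30 genes in a library was 70, for Tm7sf2, so counting depth limited this gene more than the others. Levels are given as TPM (a length-scaled share of each library's transcripts, as deposited by the authors), so that they can be compared between genes. Changes come from a count model over all 8 libraries, as log2 fold changes, each with its standard error (SE), and a gene was called at an adjusted p under 0.05. With 2 libraries a group, and labels that do not say whether these were separate cultures, the p-values measure the spread between these libraries, which may be technical. Groups whose libraries do not overlap are named as a description only. With MSDC alone this held for 23 of the 30 genes upward and 4 downward, more than the 19 and 1 called. The share over all tested genes was not computed, for this or any other comparison, so such counts are not read as particular to the 30 genes. In bulk RNA, fewer cells of a type and less RNA per cell cannot be told apart. The vehicle libraries differed more from each other (chi-square per degree of freedom 15.0) than those of the other groups (4.32 to 6.40).

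The cells carried the defining genes of alveolar macrophages. The 10 markers looked for summed to 10443 to 12892 TPM over the libraries. Chil3 was the largest part of this sum in each library, with 4260 to 8579 TPM, while Krt79 ran from 5.71 to 120 TPM. Siglecf, a lectin of these cells, stood between 232 and 261 TPM. The 4 B cell markers summed to at most 0.16 TPM, and 4 of 6 T and NK cell markers in the table summed to at most 0.20 TPM. The 3 endothelial markers in the table summed to at most 1.69 TPM and the 5 fibroblast markers to at most 0.40 TPM. The 7 epithelial markers summed to 22.1 to 36.2 TPM, mostly from Cdh1, which encodes E-cadherin, while the surfactant protein gene Sftpa1 was at 0 and Sftpb and Sftpc reached at most 0.09 TPM. With MSDC alone, 5 of the 10 alveolar macrophage markers were called higher and 4 lower: Ear1 had 1613 and 1617 TPM in MSDC and 119 and 120.45 TPM in vehicle, and Chil3 had 4807 and 4697 TPM in MSDC and 8536 and 8579 TPM in vehicle. Sums for other cell types also differed between groups, and the endothelial sum was 0.46 to 0.58 TPM in Poly(I:C) + MSDC, 1.49 to 1.69 TPM in Poly(I:C) + vehicle, 0.37 to 0.49 TPM in MSDC and 1.01 to 1.44 TPM in vehicle. The 5 monocyte and interstitial macrophage markers in the table summed to 0.86 to 1.16 TPM in Poly(I:C) + MSDC, 3.33 to 3.52 TPM in Poly(I:C) + vehicle, 0.67 to 0.98 TPM in MSDC and 3.28 to 3.41 TPM in vehicle. The 5 dendritic cell markers summed to 3.98 to 4.67 TPM in Poly(I:C) + MSDC, 6.70 to 8.47 TPM in Poly(I:C) + vehicle, 2.74 to 2.96 TPM in MSDC and 4.48 to 5.61 TPM in vehicle. The 3 neutrophil markers in the table summed to 38.3 to 55.5 TPM in Poly(I:C) + MSDC, 58.2 to 59.7 TPM in Poly(I:C) + vehicle, 42.9 to 52.8 TPM in MSDC and 54.8 to 56.8 TPM in vehicle. These 3 did not move alike: with MSDC alone 1 was called higher and 1 lower. The lower one, Mmp8, had 3.29 and 4.93 TPM in MSDC and 27.7 and 23.4 TPM in vehicle. The part of these cells in the results was not tested.

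Levels of the 30 genes spanned 3.25 to 641 TPM over the libraries, and 28 of them lay above the median of all genes with any signal. Npc2 was the most abundant, with 493 and 545 TPM in Poly(I:C) + MSDC, 641 and 635 TPM in Poly(I:C) + vehicle, 329 and 338 TPM in MSDC and 345 and 349.65 TPM in vehicle. It encodes the soluble protein that hands cholesterol to NPC1 in the lysosome. At the low end stood the sterol reductase gene Tm7sf2, with 5.33 and 6.28 TPM in Poly(I:C) + MSDC, 4.42 and 3.25 TPM in Poly(I:C) + vehicle, 8.94 and 8.31 TPM in MSDC and 5.51 and 5.95 TPM in vehicle. Lbr, the lamin B receptor, which has the same reductase activity, stood between 8.97 and 12.95 TPM in every library. Among the enzymes of the main route the highest were Dhcr7, at 130.5 and 127 TPM in vehicle, Fdps, at 121 and 127 TPM, and Mvd, at 118 and 126 TPM. The Fdps and Mvd libraries overlap, and those of Dhcr7 lie just above Fdps.

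**Figure D1:**
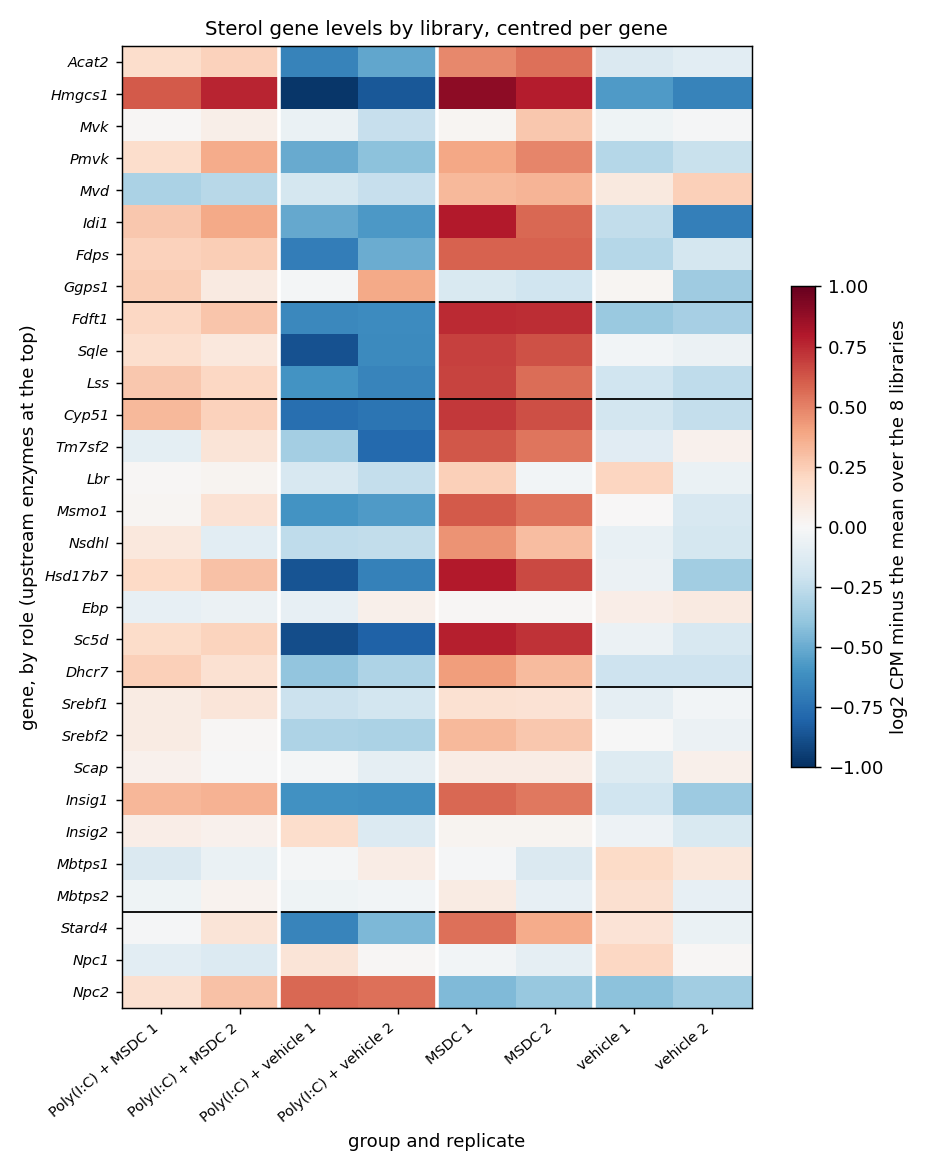
Level of each of the 30 genes (rows, ordered by role with black lines between roles) in each of the 8 libraries (columns), as log2 CPM (library-scaled counts) minus the gene's mean over the libraries, on a colour scale from -1 to 1. Most enzyme rows are red in MSDC, paler red in Poly(I:C) + MSDC, and blue in Poly(I:C) + vehicle. Mvd, Ebp, Lbr, Ggps1, Scap, Insig2, Mbtps1, Mbtps2, Npc1 and Npc2 depart from that picture or vary little. Nsdhl, Tm7sf2 and Stard4 each have 1 Poly(I:C) + MSDC library below the mean (-0.10, -0.10 and -0.01).

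The comparison of MSDC with vehicle in unstimulated cells asked what the compound alone did to the pathway. Most of the route rose: 19 of 30 genes (63.3%) were higher and 1 was lower, where 11.1% of all tested genes were higher and 12.4% lower. The median log2 fold change of the 30 genes was 0.54, against -0.0015 over all tested genes. By role, 5 of 8 genes from acetyl-CoA to farnesyl and geranylgeranyl diphosphate rose, all 3 of the squalene and lanosterol steps, 7 of 9 from lanosterol to cholesterol, 3 of 7 of SREBP control and 1 of 3 of sterol transport.

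The largest rise was that of Hmgcs1, which encodes the synthase that makes HMG-CoA. It stood at 105 and 96.8 TPM in MSDC, against 39.2 and 35.5 TPM in vehicle, a log2 fold change of 1.46 (SE 0.08, adjusted p = 1.15e-09). Both MSDC libraries lay far above both vehicle libraries. Idi1, the isomerase that converts isopentenyl diphosphate to its reactive partner, had 65.0 and 55.1 TPM in MSDC and 32.6 and 23.3 TPM in vehicle (log2 fold change 1.13, SE 0.11, adjusted p = 1.49e-06). Its groups did not overlap either. Fdps, the farnesyl diphosphate synthase, had 215 and 213 TPM in MSDC and 121 and 127 TPM in vehicle (0.82, SE 0.07). Acat2, the cytosolic thiolase that condenses acetyl-CoA, had 33.3 and 34.6 TPM in MSDC and 22.2 TPM in both vehicle libraries (0.64, SE 0.09). Pmvk, the phosphomevalonate kinase, had 38.1 and 40.5 TPM in MSDC and 24.5 and 24.9 TPM in vehicle (0.69, SE 0.10).

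This early part of the route was not uniform. Mvk, the kinase that acts just ahead of Pmvk, had 23.3 and 27.5 TPM in MSDC and 23.0 and 22.9 TPM in vehicle and was not called (0.17, SE 0.11, adjusted p = 0.292). Mvd, the decarboxylase that acts just after Pmvk, had 134 TPM in both MSDC libraries and 118 and 126 TPM in vehicle and was not called either (0.16, SE 0.07, adjusted p = 0.103). Ggps1, which leads farnesyl diphosphate away from sterols to protein prenylation, had 9.05 and 8.67 TPM in MSDC and 10.0 and 7.58 TPM in vehicle (-0.02, SE 0.14, adjusted p = 0.947). Its 95% interval, from -0.33 to 0.29, does not reach the change of Fdps.

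At the entry to sterols the 3 genes rose together. Fdft1, the squalene synthase, had 29.1 and 28.5 TPM in MSDC and 13.8 and 13.7 TPM in vehicle (1.09, SE 0.08, adjusted p = 2.14e-08). Sqle, the squalene epoxidase and a second control point of the pathway, had 52.3 and 50.1 TPM in MSDC and 32.9 and 31.2 TPM in vehicle (0.70, SE 0.08). Lss, which closes the rings of lanosterol, had 26.9 and 27.3 TPM in MSDC and 15.2 and 14.1 TPM in vehicle (0.84, SE 0.08). The groups did not overlap in any of them.

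After lanosterol, Hsd17b7, a sterol ketoreductase, had 13.3 and 12.3 TPM in MSDC and 7.55 and 6.01 TPM in vehicle (0.92, SE 0.11). Cyp51, the lanosterol demethylase, had 51.9 and 49.2 TPM in MSDC and 28.7 and 26.9 TPM in vehicle (0.89, SE 0.07, adjusted p = 6.82e-08). Sc5d, a sterol desaturase, had 38.3 and 36.5 TPM in MSDC and 21.8 and 20.3 TPM in vehicle (0.86, SE 0.08). These 3 genes showed no overlap between groups. Msmo1, Tm7sf2, Dhcr7 and Nsdhl rose by 0.66, 0.61, 0.57 and 0.50 (SE 0.08, 0.18, 0.06 and 0.09). Lbr (0.03, SE 0.12) and the sterol isomerase gene Ebp (-0.07, SE 0.07) were not called, and Ebp had 84.9 and 83.9 TPM in MSDC and 90.8 and 89.2 TPM in vehicle.

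Within the control system the members did not move alike. Insig1, the brake that SREBP2 itself induces, had 133 and 127 TPM in MSDC and 80.0 and 69.4 TPM in vehicle (0.83, SE 0.07, adjusted p = 1.55e-07). Insig2, its relative, had 11.2 TPM in both MSDC libraries and 11.1 and 9.67 TPM in vehicle (0.13, SE 0.12, adjusted p = 0.507), with a 95% interval from -0.12 to 0.38 that stays below the change of Insig1. Srebf2 had 102 and 96.2 TPM in MSDC and 83.0 and 77.8 TPM in vehicle (0.33, SE 0.06, adjusted p = 0.0007). Srebf1, which encodes the fatty acid regulators SREBP1a and SREBP1c, rose by 0.21 (SE 0.06, adjusted p = 0.0188). The escort gene Scap (0.11, SE 0.07) and the protease gene Mbtps2 (-0.04, SE 0.09) were not called. Mbtps1, the other protease gene, was the only one of the 30 genes called lower, with 34.3 and 30.8 TPM in MSDC and 40.4 and 37.1 TPM in vehicle (-0.23, SE 0.07, adjusted p = 0.0297).

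Of the transport genes, Stard4, a cytosolic sterol carrier and known SREBP2 target, had 28.4 and 24.3 TPM in MSDC and 21.9 and 18.1 TPM in vehicle (0.42, SE 0.10, adjusted p = 0.0035). Npc1, the lysosomal membrane protein that exports cholesterol, had 146 and 138 TPM in MSDC and 177 and 149 TPM in vehicle and was not called (-0.17, SE 0.07, adjusted p = 0.0949). Npc2 was not called (-0.03, SE 0.06, adjusted p = 0.776). Without 1 library, calls were lost for Mbtps1 (vehicle replicate 1, -0.19; MSDC replicate 2, -0.19), Stard4 (MSDC replicate 1, 0.32), Srebf1 (vehicle replicate 1, 0.18; MSDC replicates 1 and 2, 0.19 and 0.20) and Tm7sf2 (the same libraries, 0.54, 0.56 and 0.64), and Npc1 became called without vehicle replicate 2 (-0.27). With limma on log2 TPM at either pseudocount, Stard4 (0.38 and 0.40) and Mbtps1 (-0.25 in both) also lost the call. Mbtps1 lost it with the groups fitted alone too (-0.23), and Tm7sf2 with DESeq2 (0.61). The other 16 genes that rose were called in each alternative fit tried.

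**Figure D2:**
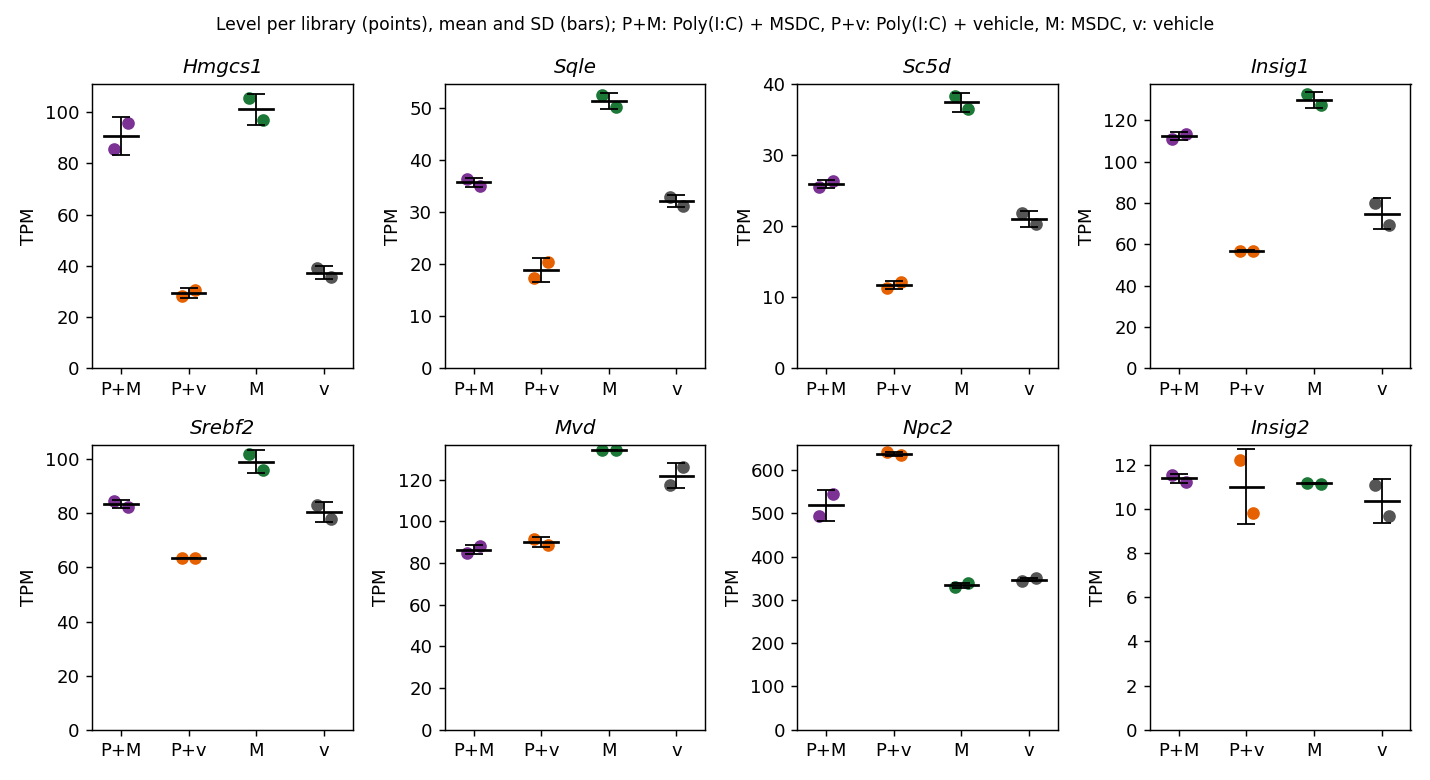
TPM of 8 genes in each library (points), with the mean and SD of the 2 libraries of a group (bars), for Poly(I:C) + MSDC (P+M), Poly(I:C) + vehicle (P+v), MSDC (M) and vehicle (v), each axis starting at 0. Hmgcs1, Sqle, Sc5d and Insig1 are highest in MSDC and lowest in Poly(I:C) + vehicle, Mvd is lower in both Poly(I:C) groups, Npc2 is higher in both, and the Insig2 libraries all lie between 9.67 and 12.2 TPM.

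Since most of these genes moved together, their promoters were read for the sites that SREBP2 and its partners are known to use. SREBP proteins bind a sterol response element (SRE), usually with the help of NF-Y, which binds CCAAT, and Sp1, which binds GGGCGG. RefSeq promoters of GRCm38.p6, running from 250 bases before to 50 after the start, were at hand for 25 of the 30 genes, as 33 windows. The 5 genes without one were Fdps, Fdft1, Sqle, Stard4 and Npc1. All of these but Npc1 rose with MSDC alone, so the shares below leave out part of the genes that rose. Searched on both strands, TCACNCCAC was found in 1 of these 25 genes, Hmgcs1 (4%), and in 1.28% of the tested genes that have a promoter in the table. CCAAT was found in 21 of the 25 genes (84%) and in 43.7% of tested genes, and GGGCGG in 22 of 25 (88%) and in 68.5% of tested genes. Of the 15 genes with a promoter that rose with MSDC, 14 held CCAAT, and of the 9 that were not called, 7 did. A looser form of the element, TCACNNCA, which includes the first one, was chosen after the sequences had been seen: it was found in 10 of the 25 genes (40%) and in 13.4% of tested genes, and these 10 were 9 of the 15 genes that rose and Insig2. A match is a description of the letters and not evidence of binding, and a gene without one may hold an element elsewhere. The sequences printed are the 250 bases before the start of Hmgcs1, the gene that moved most (chr13:119690101-119690350, plus strand), Srebf2, the regulator itself (chr15:82147019-82147268, plus strand), Cyp51, a lanosterol enzyme that followed the group (chr5:4104698-4104947, minus strand), Insig1, the induced brake (chr5:28071162-28071411, plus strand), and Npc2, which went against the group with Poly(I:C) (chr12:84773113-84773362, minus strand). Capitals mark TCACNCCAC, TCACNNCA and CCAAT on either strand (CCAAT reads ATTGG on the other strand).
Hmgcs1: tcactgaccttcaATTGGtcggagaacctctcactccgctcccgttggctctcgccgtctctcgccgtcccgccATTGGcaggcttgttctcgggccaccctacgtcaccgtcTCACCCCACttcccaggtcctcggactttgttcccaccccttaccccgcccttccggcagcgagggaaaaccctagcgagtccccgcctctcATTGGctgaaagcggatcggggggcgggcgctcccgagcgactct
Srebf2: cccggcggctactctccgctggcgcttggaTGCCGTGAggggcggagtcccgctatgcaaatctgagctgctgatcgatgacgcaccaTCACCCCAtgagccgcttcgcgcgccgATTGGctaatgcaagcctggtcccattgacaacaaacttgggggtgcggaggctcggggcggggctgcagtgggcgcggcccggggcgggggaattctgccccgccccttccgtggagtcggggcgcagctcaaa
Cyp51: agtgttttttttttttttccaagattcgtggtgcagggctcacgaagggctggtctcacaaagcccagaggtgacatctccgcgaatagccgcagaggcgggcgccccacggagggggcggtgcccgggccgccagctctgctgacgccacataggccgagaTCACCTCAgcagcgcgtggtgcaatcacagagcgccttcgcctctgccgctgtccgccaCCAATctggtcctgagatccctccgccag
Insig1: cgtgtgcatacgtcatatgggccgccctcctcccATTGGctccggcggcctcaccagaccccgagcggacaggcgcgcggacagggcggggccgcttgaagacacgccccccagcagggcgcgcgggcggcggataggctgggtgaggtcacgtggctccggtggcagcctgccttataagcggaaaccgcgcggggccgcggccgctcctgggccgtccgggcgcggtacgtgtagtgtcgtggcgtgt
Npc2: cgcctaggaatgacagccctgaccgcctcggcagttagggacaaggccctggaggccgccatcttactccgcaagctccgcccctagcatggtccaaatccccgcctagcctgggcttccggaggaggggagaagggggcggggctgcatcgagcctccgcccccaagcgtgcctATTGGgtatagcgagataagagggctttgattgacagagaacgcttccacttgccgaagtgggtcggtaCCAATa
In Hmgcs1 the element begins 137 bases before the start, with CCAAT letters beginning 237, 176 and 45 bases before it. Srebf2 holds 2 matches to the looser form and a single CCAAT match, which begins 135 bases before the start. Cyp51 holds its looser match 88 bases and its CCAAT match 29 bases before the start. Insig1 and Npc2 hold CCAAT letters without either form of the element in these 250 bases.

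In cells stimulated with Poly(I:C), the comparison of MSDC with vehicle asked whether the compound still raised the pathway. Of the 30 genes 18 (60%) were higher and 1 was lower, where 12.5% of all tested genes were higher and 13.6% lower. The median was 0.55, against -0.0024 over all tested genes. All 18 were among the 19 that rose without Poly(I:C). The shared genes were thus 100% of the shorter list and 94.7% of the longer one. The exception was Nsdhl, a sterol dehydrogenase, with 32.0 and 28.0 TPM in Poly(I:C) + MSDC and 24.4 and 24.8 TPM in Poly(I:C) + vehicle (0.25, SE 0.09, adjusted p = 0.0517). The comparisons with and without Poly(I:C) share no library, but they come from 1 fit with a shared estimate of spread. The shared part over all tested genes was not computed, so the overlap is not read as particular to the 30 genes.

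Hmgcs1 again led, with 85.6 and 96.0 TPM in Poly(I:C) + MSDC and 28.1 and 30.7 TPM in Poly(I:C) + vehicle (1.59, SE 0.08, adjusted p = 4.49e-10). Both MSDC-treated libraries lay far above both vehicle-treated libraries. Sc5d had 25.6 and 26.3 TPM in Poly(I:C) + MSDC and 11.3 and 12.1 TPM in Poly(I:C) + vehicle (1.05, SE 0.09). Cyp51 had 39.4 and 37.2 TPM in Poly(I:C) + MSDC and 18.2 and 18.6 TPM in Poly(I:C) + vehicle (1.02, SE 0.07). Hsd17b7 had 8.70 and 9.38 TPM in Poly(I:C) + MSDC and 4.07 and 4.67 TPM in Poly(I:C) + vehicle (1.02, SE 0.12). Insig1 had 111 and 114 TPM in Poly(I:C) + MSDC and 57.0 and 56.8 TPM in Poly(I:C) + vehicle (0.95, SE 0.07, adjusted p = 3.36e-08). The groups of these 5 genes did not overlap, as was so for 22 of the 30 genes in this direction (share over all tested genes not computed).

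The squalene steps moved as a unit here too: Sqle, Fdft1 and Lss rose by 0.89, 0.88 and 0.87 (SE 0.08 each). Idi1, Fdps, Acat2 and Pmvk rose by 0.87, 0.83, 0.80 and 0.74 (SE 0.11, 0.08, 0.09 and 0.11), and Msmo1, Stard4 and Dhcr7 by 0.66, 0.61 and 0.55 (SE 0.08, 0.10 and 0.06). Among the regulators, Srebf2 had 84.6 and 82.4 TPM in Poly(I:C) + MSDC and 63.4 and 63.5 TPM in Poly(I:C) + vehicle (0.36, SE 0.06, adjusted p = 0.000288), and Srebf1 rose by 0.30 (SE 0.06, adjusted p = 0.00125). Mvd was not called (-0.09, SE 0.07, adjusted p = 0.378), with 84.8 and 88.1 TPM in Poly(I:C) + MSDC and 91.7 and 88.5 TPM in Poly(I:C) + vehicle. Mvk, Ggps1, Lbr, Ebp, Scap, Insig2, Mbtps1, Mbtps2 and Npc1 lay between -0.19 and 0.22 and were not called.

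Npc2 was the gene called lower, with 493 and 545 TPM in Poly(I:C) + MSDC and 641 and 635 TPM in Poly(I:C) + vehicle (-0.33, SE 0.06, adjusted p = 0.000504). Tm7sf2 was called higher at the edge of the threshold (0.56, SE 0.20, adjusted p = 0.0482) and lost the call without either library of MSDC or of Poly(I:C) + MSDC (0.45 to 0.67) and without Poly(I:C) + vehicle replicate 2 (0.36). It also lost the call at about the same size with a replicate block (0.56, adjusted p = 0.0574), with DESeq2 (0.56, adjusted p = 0.123) and with the groups fitted alone (0.57, adjusted p = 0.0772). Nsdhl and Npc1 (-0.19, SE 0.07, adjusted p = 0.0553) each became called in 7 of the 16 alternative fits. The remaining 17 genes that rose and Npc2 were called in each of them.

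**Figure D3:**
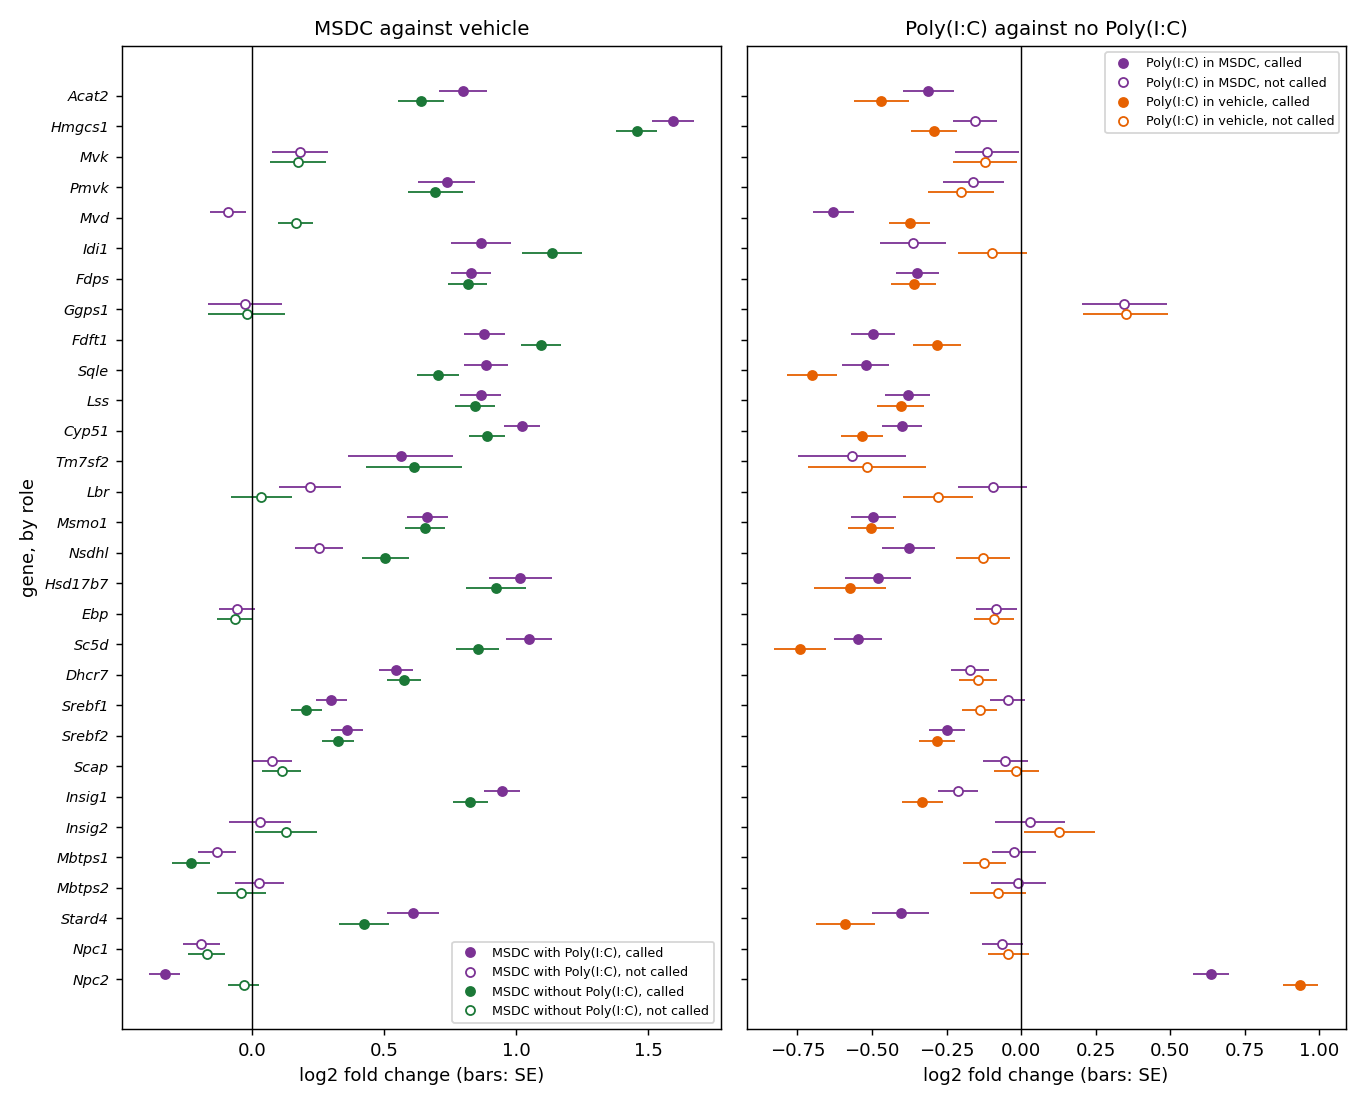
Log2 fold change (x axis, bars are 1 SE) of the 30 genes (y axis, by role), for MSDC against vehicle with and without Poly(I:C) on the left and for Poly(I:C) against no Poly(I:C) in MSDC-treated and vehicle-treated cells on the right. Filled points were called at an adjusted p under 0.05. On the left panel the enzyme genes lie right of 0, with Hmgcs1 farthest at 1.59 and 1.46, except Ebp and Ggps1 in both comparisons and Mvd with Poly(I:C). On the right panel they lie left of 0 except Ggps1, at 0.35 in both responses, and the one gene called higher is Npc2, at 0.64 and 0.94.

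The comparison of Poly(I:C) with no Poly(I:C) in vehicle-treated cells asked how the pathway responded to the viral RNA mimic. Of the 30 genes 14 (46.7%) were lower and 1 was higher, where 4.1% of all tested genes were lower and 7.52% higher. The median was -0.28, against 0 over all tested genes. Scaling the libraries by their totals alone gave 15 lower and 1 higher among the 30 genes. Over all tested genes that scaling made 45.7% of called genes higher, against 64.7% in the fit used, and moved the median by -0.055.

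Sc5d fell most, to 11.3 and 12.1 TPM in Poly(I:C) + vehicle, against 21.8 and 20.3 TPM in vehicle (-0.74, SE 0.09, adjusted p = 1.98e-05). Sqle fell to 17.3 and 20.5 TPM in Poly(I:C) + vehicle, against 32.9 and 31.2 TPM in vehicle (-0.70, SE 0.08, adjusted p = 2.22e-05). Stard4 had 11.7 and 14.1 TPM in Poly(I:C) + vehicle and 21.9 and 18.1 TPM in vehicle (-0.59, SE 0.10). The libraries of the groups did not overlap in any of these genes. That was so for 23 of the 30 genes in this direction (share over all tested genes not computed). Hsd17b7 (-0.57, SE 0.12), Cyp51 (-0.53, SE 0.07), Msmo1 (-0.50, SE 0.08), Acat2 (-0.47, SE 0.09), Lss (-0.40, SE 0.08), Mvd (-0.37, SE 0.07), Fdps (-0.36, SE 0.08), Hmgcs1 (-0.29, SE 0.08) and Fdft1 (-0.28, SE 0.08) were also called lower. By role, the calls took in 4 of 8 genes of the early route, all 3 squalene and lanosterol genes and 4 of 9 genes after lanosterol.

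In the control system, Insig1 fell to 57.0 and 56.8 TPM in Poly(I:C) + vehicle, against 80.0 and 69.4 TPM in vehicle (-0.33, SE 0.07, adjusted p = 0.00411). Srebf2 fell to 63.4 and 63.5 TPM in Poly(I:C) + vehicle, against 83.0 and 77.8 TPM in vehicle (-0.28, SE 0.06, adjusted p = 0.00545). The other 5 genes of control, Srebf1, Scap, Insig2, Mbtps1 and Mbtps2, lay between -0.14 and 0.13 and were not called. Dhcr7, the last reductase of one branch, had 109.7 and 115 TPM in Poly(I:C) + vehicle and 130.5 and 127 TPM in vehicle, without overlap, and was not called (-0.14, SE 0.06, adjusted p = 0.185).

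Npc2 stood apart: it rose to 641 and 635 TPM in Poly(I:C) + vehicle, against 345 and 349.65 TPM in vehicle (0.94, SE 0.06, adjusted p = 1.18e-08). Its partner in the lysosome, Npc1, did not pass the test (-0.04, SE 0.07, adjusted p = 0.765), with 157 and 147 TPM in Poly(I:C) + vehicle and 177 and 149 TPM in vehicle. Ggps1 had 9.06 and 12.5 TPM in Poly(I:C) + vehicle and 10.0 and 7.58 TPM in vehicle (0.35, SE 0.14, adjusted p = 0.137), and was called higher without vehicle replicate 1 (0.55) or without Poly(I:C) + vehicle replicate 1 (0.52). Calls were lost for Fdft1 without vehicle replicate 2 (-0.27) or either library of Poly(I:C) + vehicle (-0.29 and -0.31), for Fdps without Poly(I:C) + vehicle replicate 1 (-0.28) and for Hmgcs1 without that library (-0.25) or vehicle replicate 1 (-0.24). Lss was not called by limma on log2 TPM at either pseudocount (-0.30 and -0.32). Fdft1 (-0.28) and Hmgcs1 (-0.29) were also not called with the groups fitted alone. Acat2, Cyp51, Hsd17b7, Insig1, Msmo1, Mvd, Sc5d, Sqle, Srebf2 and Stard4 were called lower in each of the alternative fits.

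In MSDC-treated cells given Poly(I:C), 13 of 30 genes (43.3%) were lower and 1 was higher, where 1.5% of all tested genes were lower and 4.82% higher. The median was -0.23, against 0.0016 over all tested genes. Of these 13 genes 12 had also fallen in vehicle-treated cells, which is 92.3% of the 13 and 85.7% of the 14. These comparisons share no library but come from the same fit, and the shared part over all tested genes was not computed. Nsdhl was the gene called only in MSDC-treated cells (-0.38, SE 0.09, adjusted p = 0.0159), and Hmgcs1 (-0.15, SE 0.07, adjusted p = 0.314) and Insig1 (-0.21, SE 0.07, adjusted p = 0.083) those called only in vehicle-treated cells. The test of the difference between the responses, given below, called none of them.

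Mvd fell most, to 84.8 and 88.1 TPM in Poly(I:C) + MSDC, against 134 TPM in both MSDC libraries (-0.63, SE 0.07, adjusted p = 1.03e-05). Sc5d had 25.6 and 26.3 TPM in Poly(I:C) + MSDC and 38.3 and 36.5 TPM in MSDC (-0.55, SE 0.08, adjusted p = 0.00027). Sqle had 36.3 and 35.0 TPM in Poly(I:C) + MSDC and 52.3 and 50.1 TPM in MSDC (-0.52, SE 0.08). The groups of these genes did not overlap, as was so for 23 of the 30 genes in this direction (share over all tested genes not computed). Fdft1 (-0.50, SE 0.07), Msmo1 (-0.50, SE 0.08), Hsd17b7 (-0.48, SE 0.11), Stard4 (-0.40, SE 0.10), Cyp51 (-0.40, SE 0.07), Lss (-0.38, SE 0.07), Fdps (-0.35, SE 0.07), Acat2 (-0.31, SE 0.09) and Srebf2 (-0.25, SE 0.06) were also lower. Npc2 rose to 493 and 545 TPM in Poly(I:C) + MSDC, against 329 and 338 TPM in MSDC (0.64, SE 0.06, adjusted p = 1.57e-06).

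The count of 13 was the least firm of those given. It was 6 without MSDC replicate 1, 8 without Poly(I:C) + MSDC replicate 1 and 7 without Poly(I:C) + MSDC replicate 2, and Mvd, Sc5d, Sqle, Fdft1, Msmo1 and Cyp51 were the genes called in each alternative fit. Without 1 library of either group, Acat2, Fdps, Hsd17b7, Lss, Nsdhl, Srebf2 and Stard4 lost the call at values between -0.53 and -0.22. Acat2 also lost it with DESeq2 (-0.32, adjusted p = 0.0577). With limma on log2 TPM at either pseudocount, Acat2 (-0.30 and -0.31), Hsd17b7 (-0.46 and -0.50) and Stard4 (-0.37 and -0.38) lost it too. Across the alternatives other than leaving out a library, the count ran from 10 to 17.

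Cells given both agents were set against vehicle to see where the pathway ended. Of the 30 genes 13 (43.3%) were higher and 3 (10%) lower, where 15.2% of all tested genes were higher and 12.8% lower, and the median was 0.17, against 0.0083. With scaling by totals 13 were higher and 4 lower, and over all tested genes the share of called genes that were higher was 42.7%, against 54.3% in the fit used. Hmgcs1 stayed far above vehicle, with 85.6 and 96.0 TPM in Poly(I:C) + MSDC and 39.2 and 35.5 TPM in vehicle (1.30, SE 0.08, adjusted p = 2.43e-09). Idi1 (0.77, SE 0.11), Insig1 (0.62, SE 0.07), Npc2 (0.61, SE 0.06), Fdft1 (0.60, SE 0.08), Pmvk (0.53, SE 0.11), Cyp51 (0.49, SE 0.07), Fdps (0.47, SE 0.07), Lss (0.46, SE 0.08) and Dhcr7 (0.40, SE 0.06) were higher in each alternative fit.

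For other genes the level with both agents lay close to that of vehicle. Srebf2 had 84.6 and 82.4 TPM in Poly(I:C) + MSDC and 83.0 and 77.8 TPM in vehicle (0.08, SE 0.06, adjusted p = 0.382, 95% interval -0.05 to 0.21). Stard4 had 18.7 and 21.6 TPM in Poly(I:C) + MSDC and 21.9 and 18.1 TPM in vehicle (0.02, SE 0.10, adjusted p = 0.909, 95% interval -0.18 to 0.23). Sqle (0.18, SE 0.08, adjusted p = 0.111, 95% interval 0.01 to 0.36) and Msmo1 (0.16, SE 0.08, adjusted p = 0.141, 95% interval -0.003 to 0.32) were not called. Their intervals reach well above 0, so a level equal to vehicle is not shown for either. The Sqle libraries with both agents lay above those of vehicle without overlap. Mvd lay below vehicle, with 84.8 and 88.1 TPM in Poly(I:C) + MSDC and 118 and 126 TPM in vehicle (-0.47, SE 0.07, adjusted p = 7.72e-05). Mbtps1 (-0.26, SE 0.07) and Npc1 (-0.24, SE 0.07) were also called lower, the first not without vehicle replicate 1 (-0.22) or Poly(I:C) + MSDC replicate 1 (-0.22), the second not without vehicle replicate 1 (-0.13) or either library of Poly(I:C) + MSDC (-0.25 and -0.24). Among the higher genes, Acat2 lost the call without Poly(I:C) + MSDC replicate 2 (0.29), Hsd17b7 without that library (0.38) or vehicle replicate 2 (0.31) and Sc5d likewise (0.27 and 0.26). Without vehicle replicate 1, or without Poly(I:C) + MSDC replicate 1, a single gene was called lower.

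**Figure D4:**
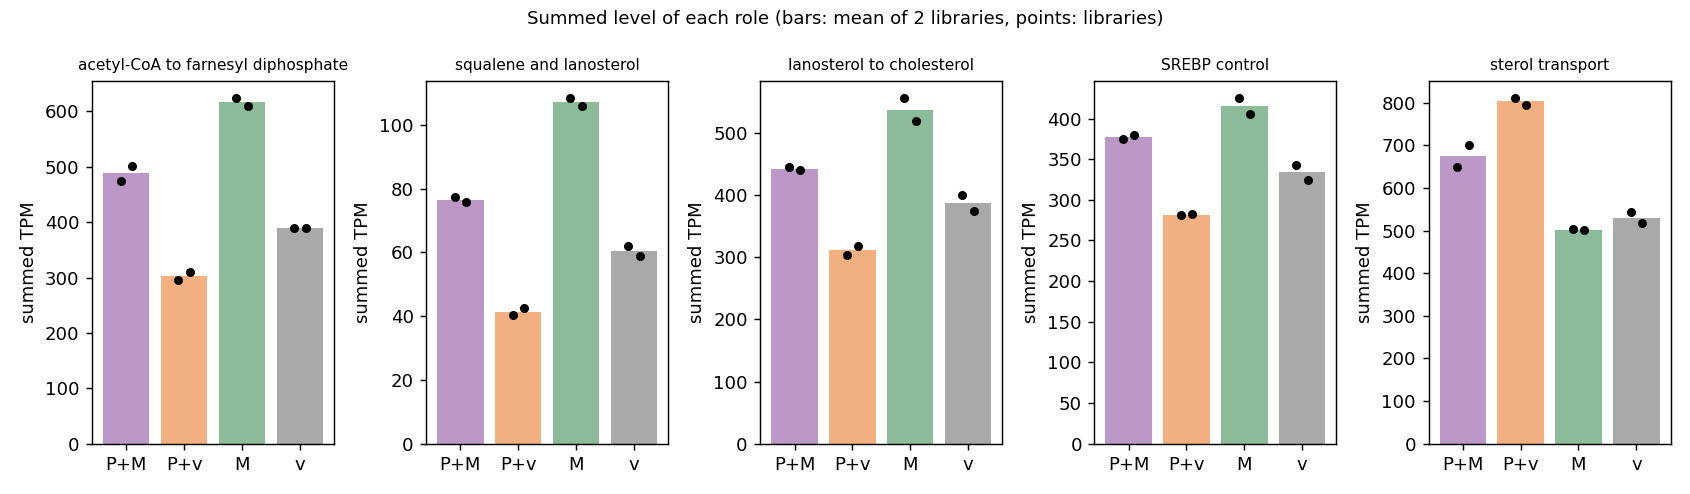
Summed TPM of the genes of each role (bars are the mean of 2 libraries, points the libraries) for Poly(I:C) + MSDC (P+M), Poly(I:C) + vehicle (P+v), MSDC (M) and vehicle (v), each axis starting at 0. In the 4 roles of synthesis and control the sums are highest in MSDC, then Poly(I:C) + MSDC, then vehicle, then Poly(I:C) + vehicle, and the transport sum, which is mostly Npc2, is highest in Poly(I:C) + vehicle.

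Sums of TPM by role showed how the groups stood as a whole. The 8 genes of the early route summed to 475 and 501 TPM in Poly(I:C) + MSDC, 296 and 311 TPM in Poly(I:C) + vehicle, 624 and 610.1 TPM in MSDC and 390.1 and 389 TPM in vehicle. The 3 squalene and lanosterol genes summed to 77.4 and 75.7 TPM in Poly(I:C) + MSDC, 40.3 and 42.5 TPM in Poly(I:C) + vehicle, 108 and 106 TPM in MSDC and 61.9 and 58.9 TPM in vehicle. The groups of these sums did not overlap.

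Whether MSDC changed the response to Poly(I:C) was tested by the interaction, which is positive where the response was more positive in MSDC-treated cells. None of the 30 genes was called, where 0.12% of all tested genes were called higher and 0.103% lower, and DESeq2 called none either. At an unadjusted p under 0.05 there were 2 of 30, Npc2 (-0.30, SE 0.08, adjusted p = 0.34) and Mvd (-0.26, SE 0.10, adjusted p = 0.664), named after their values were seen. Values of the 30 genes ran from -0.30 to 0.19, with a median of 0.02 and SE between 0.08 and 0.27. For Hmgcs1 the difference of responses was 0.14 (95% interval -0.09 to 0.37) and for Insig1 0.12 (95% interval -0.08 to 0.32), and differences within such intervals could not be detected with 2 libraries a group. With scaling by totals, 77.8% of the called genes of the whole table were higher, against 53.8% in the fit used.

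Genes of neighbouring pathways that are not among the 30 were read from further lists. Of 10 genes of the isoprenoid branch, 1 (10%) rose with MSDC alone, close to the 11.1% of all tested genes: Nus1, a subunit of the enzyme that makes dolichol precursors (0.38, SE 0.06), and none was called in either response to Poly(I:C). Of 11 genes of protein turnover and SREBP regulation, 3 rose with Poly(I:C) in vehicle-treated cells, where 7.52% of all tested genes were higher: Rnf139 (0.41, SE 0.09), Rnf145 (0.33, SE 0.07) and Mylip (0.33, SE 0.08), all of which encode ubiquitin ligases. Of 10 further genes of sterol transport and ester hydrolysis, Stard3, a late endosomal sterol carrier, rose with Poly(I:C) by 0.83 in vehicle-treated cells (SE 0.07, adjusted p = 3.1e-07) and by 0.66 in MSDC-treated cells (SE 0.07), and no other gene of this list was called in either response. With MSDC alone 3 of these 10 genes were higher and 2 lower, where 11.1% of all tested genes were higher and 12.4% lower. The higher ones were Nceh1, a cholesteryl ester hydrolase (0.63, SE 0.06), Stard3 (0.28, SE 0.07) and Lipa, the lysosomal acid lipase (0.27, SE 0.06), and the lower ones Gramd1b, which carries sterol from the plasma membrane (-0.45, SE 0.12), and Vps13c, a lipid transfer protein (-0.43, SE 0.14). With MSDC under Poly(I:C), 3 were higher (Nceh1, Scp2 and Lipa, by 0.75, 0.23 and 0.23) and 2 lower (Gramd1b and Gramd1a, at -0.42 and -0.29). Over all tested genes 12.5% were higher and 13.6% lower in that comparison. Of 4 tested genes of esterification and oxysterols, 2 were lower with MSDC under Poly(I:C) and 1 with MSDC alone. Over all tested genes 13.6% and 12.4% were lower in these comparisons. Among the genes lower under Poly(I:C) was Ch25h, which makes an oxysterol known to hold back SREBP2, and which fell by 0.56 (SE 0.07, adjusted p = 7.8e-06). Its part in the changes of the 30 genes was not tested. It averaged 352 ± 14.8 TPM in Poly(I:C) + MSDC, 509 ± 2.86 TPM in Poly(I:C) + vehicle, 374 ± 10.1 TPM in MSDC and 463 ± 46.9 TPM in vehicle, and the change with Poly(I:C) in vehicle-treated cells was not called (0.20, SE 0.07, adjusted p = 0.0612).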

How the data were processed

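RNA of cultured mouse alveolar macrophages was read by bulk RNA-seq in 8 libraries. The authors' deposited table gives expected counts (read counts per the file headers, partly not whole), TPM and FPKM. The levels printed are these deposited TPM values, in which the authors corrected for gene length and library size. The 8 FPKM columns deposited beside them were not analysed. Cuffdiff, Bowtie2 2.3.4 and TopHat2 2.1.1 are listed, without their roles, in the submitters' processing notes, as is the build GRCm38 (mm10). How strand and shared reads were counted is not stated in the labels.

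Counts were rounded, filtered (filterByExpr, 11621 of 15521 genes), scaled by TMM (factors 0.985 to 1.03) and fitted with edgeR 4.0.16 (R 4.3.3) in 1 quasi-likelihood model of the 4 groups (4 residual degrees of freedom), with no replicate block. p-values are two-sided and adjusted by Benjamini-Hochberg over all tested genes of a comparison. SE and 95% intervals were derived from the change and its F statistic. A floor of 3 counts is 0.102 to 0.104 CPM, for counting error only. The scripts were tested on simulated data. Genes are described by role, led by the smallest adjusted p and by genes that went against the others. Members, lists and tests were chosen with earlier results of these data known. Some genes of the lists are not reported here. In the RefSeq gene list, 99.3% of gene identifiers were found. Promoters, also from RefSeq, were at hand for fewer genes, 9379 of the 11621 tested, and the promoter shares of tested genes refer to these. Alternatives were RLE and total-count scaling, DESeq2 1.42.0, limma 3.58.1 on log2(TPM + 1) and log2(TPM + 0.1), no filter, the compared groups alone, a replicate block and leaving out each library.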

Additional observations from a re-analysis of the deposited data

How the results depend on the processing

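The median log2 fold change of the 30 genes ran from 0.47 to 0.57 for MSDC alone, 0.48 to 0.59 for MSDC with Poly(I:C), -0.33 to -0.24 for Poly(I:C) in vehicle, -0.26 to -0.23 for Poly(I:C) in MSDC and 0.12 to 0.23 for both agents, and no called gene changed sign. Called values moved by over 1.5 times for Tm7sf2 with MSDC under Poly(I:C) (0.36 without Poly(I:C) + vehicle replicate 2, against 0.56) and Npc1 with both agents (-0.13 without vehicle replicate 1, against -0.24). Genes called lower with MSDC alone were 2 with scaling by totals and 0 with limma at either pseudocount and with the 2 groups fitted alone. Those called lower with MSDC under Poly(I:C) were 2 with RLE scaling, DESeq2, no filter and the 2 groups alone, Npc1 being the second. Those called higher were 2 for Poly(I:C) in vehicle with no filter and 2 for Poly(I:C) in MSDC with the groups alone, Ggps1 being the second. Leaving out 1 library at a time gave 1 to 2 higher for Poly(I:C) in vehicle and 6 to 15 lower for Poly(I:C) in MSDC. It gave 0 to 2 lower for MSDC alone, 1 to 2 lower for MSDC with Poly(I:C) and 1 to 3 lower for both agents. The cause was not tested, beyond the loss of a library. Differences between replicates 1 and 2 were not shared across groups (correlations -0.029 to 0.040). With 1 difference a group, this cannot tell whether samples were paired by animal or culture. With a replicate block 18 genes were higher and 2 lower for MSDC with Poly(I:C), Tm7sf2 no longer being called and Nsdhl and Npc1 being added, and 14 lower and 1 higher for Poly(I:C) in vehicle. With 2 libraries a group, depth limits Tm7sf2 most.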
